A study of Mus musculus with 56 samples.

Results

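The genes described here are 39 genes of ribosome assembly and the nucleolus, named as a set by their mouse symbols and found by Entrez gene ID among the 19072 genes of the deposited muscle table. All 39 were matched, had recovered read counts and passed the filter on low values (a mean of at least 1 CPM, a count scaled to 1000000 of library size), so none was left out. They comprise 3 subunits of RNA polymerase I, 3 proteins of box C/D and 4 of box H/ACA small nucleolar ribonucleoprotein particles (snoRNPs), 6 nucleolar scaffold and chaperone proteins, 12 factors of the small subunit processome and 40S assembly, and 11 factors of large subunit assembly. RNA came from the gastrocnemius muscle of the calf, taken from C57BL/6J females 9 weeks old. The mice were kept under 12 h light and 12 h dark, ate freely for 7 days, and then had food for 7 days in the light phase only (daytime-restricted feeding, DRF) or in the dark phase only (nighttime-restricted feeding, NRF, the reference). Muscle was taken at zeitgeber time (ZT, hours after lights on) 0, 4, 8, 12, 16, 20 and 24, with 4 libraries for each regimen and time, 56 libraries in all. The clock hours at which food was given and removed within the phase are not stated in the labels, and neither is the animal behind each library, so a p-value below measures the spread between these libraries.

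Ribosomes are built in the nucleolus, where RNA polymerase I transcribes a long precursor of the ribosomal RNAs. Guide particles with small nucleolar RNAs (snoRNAs) modify that precursor, the small subunit processome folds and cleaves it, and assembly factors then shape the large and small subunits before export. In skeletal muscle the process is known to respond to food intake, insulin, amino acids and load, since ribosome number limits how much protein a fibre can make.

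The libraries held 28172990 to 36183392 recovered reads. The fewest reads of any member in any library were 79, in Gar1, and each of the other members had at least 168 in every library. The libraries that stood farthest from the others of their group over the genes that are not members were DRF ZT20 replicate 1, NRF ZT20 replicate 4 and NRF ZT12 replicate 3. Of 86 calls of members over the 14 comparisons, 12 were lost without DRF ZT20 replicate 1, 8 without NRF ZT20 replicate 4, 4 without NRF ZT12 replicate 3 and 14 without all 3. The values without all 3 are given with the results or after them. All 7 muscle markers (Ckm, Acta1, Mylpf, Tnnt3, Actn3, Myh1 and Myh4) passed the filter, and they had the highest summed level of the marker lists in every library. Fewer cells of a type and less RNA per cell cannot be told apart in these bulk samples. Levels are CPM. Differences are on the log2(CPM + 1) scale, tested with limma over 12024 genes with Benjamini-Hochberg adjustment and a threshold of 0.05.

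To rank different genes, levels were taken per kilobase of gene model, so the ranking depends on the recovered length of the model. That length was 1.0 times the longest coding transcript in Nop10, 1.13 in Nop58, 1.63 in Npm1 and 3.52 in Fbl. The highest members were Npm1, a histone-binding nucleolar chaperone, at 35 CPM per kilobase, and Nop10, the smallest protein of the H/ACA particle, at 34.5. Mybbp1a, a nucleolar repressor, followed at 17.3 CPM per kilobase. The lowest were Nop58, a core protein of the C/D particle, at 1.12 CPM per kilobase, Rrp1b at 1.3 and Utp15 at 1.32. The map of group means shows each member against its own average.

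**Figure D1:**
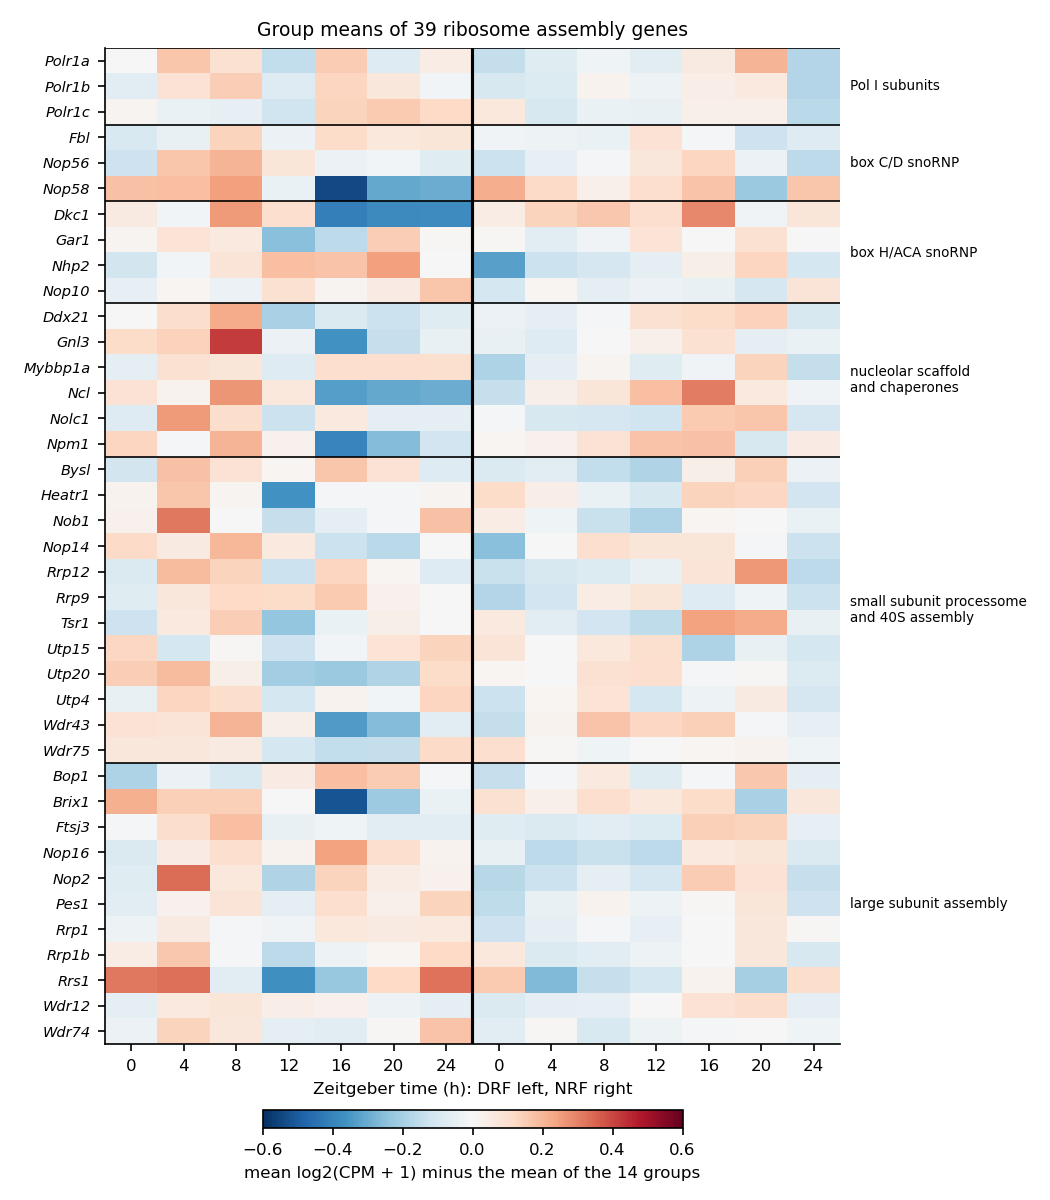
Mean log2(CPM + 1) of the 4 libraries of each group, minus the mean of the 14 groups, for the 39 members (rows, by role) at 7 zeitgeber times in DRF (left) and NRF (right). The lowest values are those of Nop58 and Brix1 at ZT16 in DRF, and Rrs1 is high at ZT24, ZT0 and ZT4 in DRF.

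The first comparison asked which members differed between the feeding phase and the fasting phase of a regimen. In DRF the feeding phase was taken as ZT4, ZT8 and ZT12 and the fasting phase as ZT16, ZT20 and the mean of ZT24 and ZT0; in NRF the phases are the other way round. Feeding phase and light phase therefore coincide in DRF and are opposed in NRF. In DRF 10 members rose in the feeding phase and 2 fell, a share of 30.8% that lies near the 28.1% of all genes tested (16.4% rose and 11.7% fell). The median difference of the 39 members was 0.04, against -0.01 over all genes. These values compare phase means, and the DRF feeding phase was not uniform. Averaged over the 39 members, the deviation from each gene's mean was 0.10 at ZT4, 0.10 at ZT8 and -0.07 at ZT12 in DRF. It was -0.05 at ZT16, -0.03 at ZT20, 0.01 at ZT24 and 0.01 at ZT0. The ZT12 mean was the lowest of the DRF times, but its libraries (-0.12 to -0.04) overlapped those of ZT16 (-0.16 to 0.01). In NRF 5 members rose and 1 fell, 15.4% against 8.43% of all genes (4.77% rose and 3.66% fell), with a median of 0.03 beside 0.00. Only Ftsj3 and Utp15 passed in both regimens. The difference between the regimens in this contrast passed for 11 members, 7 with a larger and 4 with a smaller feeding-phase difference in DRF, 28.2% against 23.3% of all genes (12.3% larger and 10.9% smaller). How the libraries are scaled set the split of these calls. Scaling by the total of recovered reads moved the median of all genes by -0.14 at ZT16, -0.15 at ZT12 and -0.11 at ZT0 in DRF minus NRF, and by at most 0.08 elsewhere. With it 13 members rose and none fell in the DRF feeding phase (all genes: 2616 rose and 499 fell, in place of 1967 and 1407), and 2 rose and none fell in NRF (all genes: 310 and 377, in place of 574 and 440). The regimen difference then passed for 9 members, all with a larger value in DRF (all genes: 2218 larger and 540 smaller, in place of 1483 and 1315). No member that had passed changed sign in these contrasts under either scaling.

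**Figure D2:**
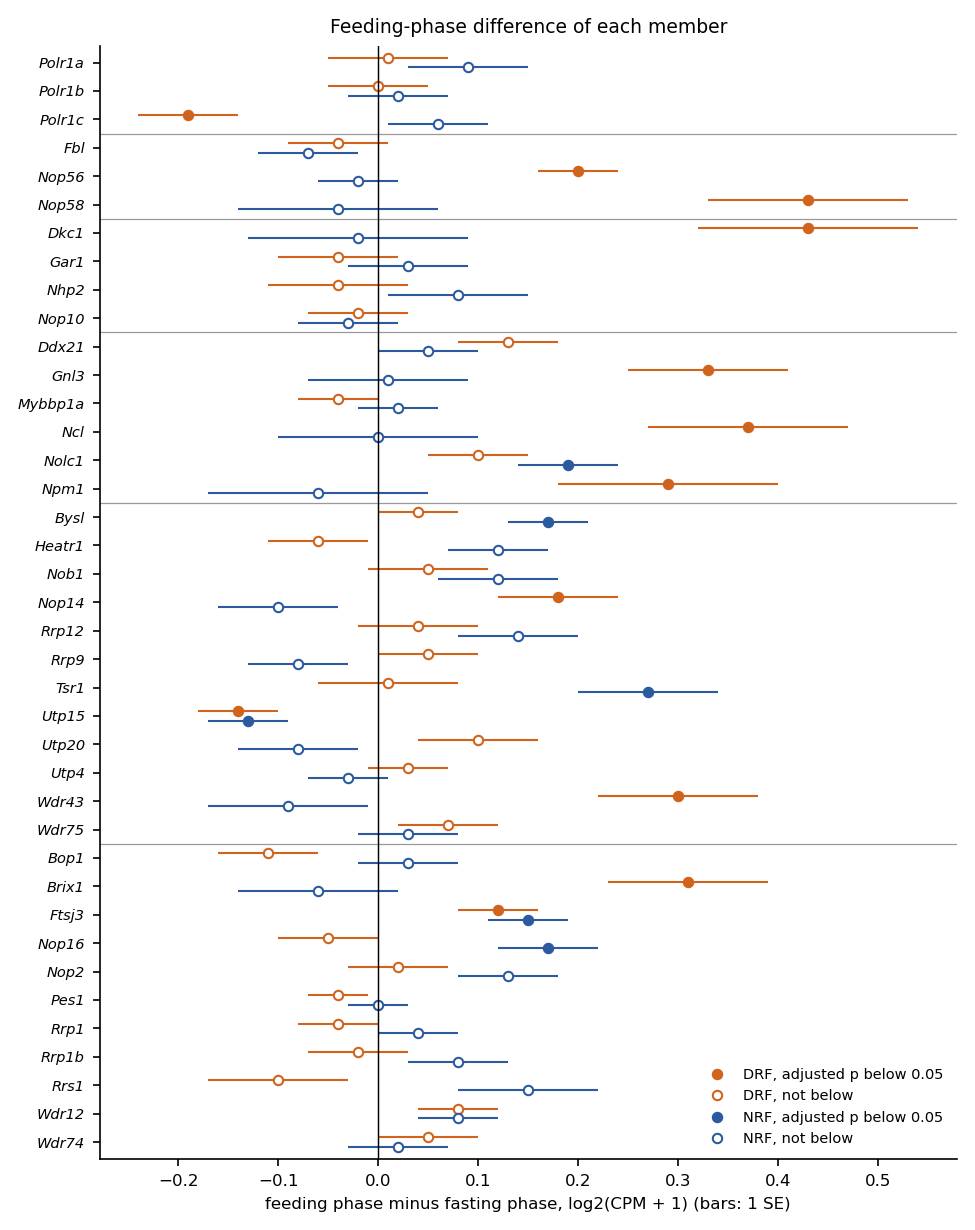
Difference between the feeding and fasting phases on the log2(CPM + 1) scale (points, with bars of 1 SE) for each member in DRF (orange) and NRF (blue), filled where limma's adjusted p was below 0.05, with lines between the role classes. The DRF values reach 0.43 in Nop58 and Dkc1, while their NRF values are -0.04 and -0.02.

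Among the RNA polymerase I subunits, Polr1c (chromosome 17, 46243920 to 46248045), which is shared with RNA polymerase III, fell in the DRF feeding phase by 0.19 ± 0.05 (SE, adjusted p = 0.00283). Its 4 libraries stood at 7.12, 7.21, 7.73 and 8.03 CPM at ZT12 and at 8.87, 8.95, 9.37 and 9.42 CPM at ZT16, with no overlap. Here and below, the times shown within a regimen vary from gene to gene and were not fixed in advance. A lack of overlap between them therefore describes the libraries and is no test. The call was lost with total-count scaling (adjusted p = 0.0822). Polr1a, the largest subunit, and Polr1b, the second largest, were among the members that moved least. Their DRF feeding-phase differences were 0.01 ± 0.06 (adjusted p = 0.958) and 0.00 ± 0.05 (adjusted p = 0.981), and neither passed in any comparison.

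Of the box C/D proteins, Nop56 and Nop58 rose in the DRF feeding phase. These paralogs bind each other and the snoRNA, and carry the methyltransferase fibrillarin. Nop58 (chromosome 1, 59684961 to 59711510) had 12.4, 13.8, 14.3 and 16.4 CPM at ZT8 in DRF and 6.16, 6.77, 8.56 and 10.2 CPM at ZT16. The ZT8 libraries all lay above the ZT16 libraries. Its feeding-phase difference was 0.43 ± 0.10 (adjusted p = 0.00127), a 1.35-fold change, and 0.35 (adjusted p = 0.00416) without DRF ZT20 replicate 1. Nop56 (chromosome 2, 130274367 to 130279313) moved less but with a smaller error, by 0.20 ± 0.04 (adjusted p = 0.000193). Its DRF libraries held 37.6, 37.8, 42.8 and 43.8 CPM at ZT8 and 28.8, 32.1, 32.6 and 34.5 CPM at ZT0, again with no overlap. For both genes the contrast differed between regimens, by 0.47 ± 0.14 in Nop58 (adjusted p = 0.0135) and 0.22 ± 0.05 in Nop56 (adjusted p = 0.00311). The Nop58 call for that difference was lost without ZT24 (adjusted p = 0.0716) and without the 3 libraries that stood apart (adjusted p = 0.0691). Fbl, fibrillarin itself, had a difference of -0.04 ± 0.05 in DRF (adjusted p = 0.612) and passed in no comparison.

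The H/ACA particle converts uridine to pseudouridine. Its catalytic protein dyskerin, encoded by Dkc1 (chromosome X, 75095854 to 75109776), rose in the DRF feeding phase by 0.43 ± 0.11 (adjusted p = 0.00447), and by 0.32 (adjusted p = 0.0148) without DRF ZT20 replicate 1. Its DRF libraries ran from 21.7 to 34.1 CPM at ZT8 and from 14.3 to 24.3 CPM at ZT16, so the groups overlapped. Its partners Gar1, Nhp2 and Nop10 had values of -0.04 ± 0.06, -0.04 ± 0.07 and -0.02 ± 0.05, with adjusted p of 0.706, 0.666 and 0.79. Only 1 of the 4 proteins that make up this particle passed. Gar1 was the scarcest member on the CPM scale, at a mean of 4.94 CPM.

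Among the scaffold proteins and chaperones, Gnl3, Ncl and Npm1 rose in the DRF feeding phase. Gnl3 (nucleostemin, a nucleolar GTPase; chromosome 14, 31012433 to 31019131) held 28.6, 32.5, 33.2 and 37.0 CPM at ZT8 and 16.7, 17.4, 18.6 and 21.9 CPM at ZT16 in DRF. Every ZT8 library lay above every ZT16 library, and the phase difference was 0.33 ± 0.08 (adjusted p = 0.00191), or 0.27 (adjusted p = 0.00679) without DRF ZT20 replicate 1. Ncl (nucleolin, which binds the rRNA precursor and its chromatin; chromosome 1, 86344719 to 86359455) held 146, 170, 174 and 194 CPM at ZT8 and 94.1, 102, 115 and 143 CPM at ZT16, likewise without overlap. Its difference of 0.37 ± 0.10 (adjusted p = 0.0051) became 0.26 (adjusted p = 0.0154) without DRF ZT20 replicate 1, where Ncl stood at 59.3 CPM against 136 to 149 CPM in the other 3 libraries. Npm1 (nucleophosmin) differed by 0.29 ± 0.11 (adjusted p = 0.0422), and the call was lost in 13 of the fits that left out 1 library. Without DRF ZT20 replicate 1, where Npm1 stood at 37.5 CPM against 88.9 to 101 CPM in the others, the value was 0.18 (adjusted p = 0.149). Ddx21, an RNA helicase, Nolc1, a carrier of snoRNPs, and Mybbp1a did not pass, with 0.13 ± 0.05, 0.10 ± 0.05 and -0.04 ± 0.04.

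Of the 12 small subunit factors, Wdr43 and Nop14 rose and Utp15 fell in the DRF feeding phase. Wdr43 (chromosome 17, 71616178 to 71659031), which binds early pre-rRNA, differed by 0.30 ± 0.08 (adjusted p = 0.00479), and by 0.22 (adjusted p = 0.0152) without DRF ZT20 replicate 1. It held 31.4, 35.1, 36.9 and 38.4 CPM at ZT8 and 21.4, 21.9, 23.2 and 30.2 CPM at ZT16. The groups did not overlap. Nop14, a processome protein, differed by 0.18 ± 0.06 (adjusted p = 0.0191), a call lost without DRF ZT20 replicate 1 (0.13, adjusted p = 0.0672). Utp15, another processome protein, fell by 0.14 ± 0.04 in the DRF feeding phase (adjusted p = 0.0138, and 0.328 with total-count scaling) and by 0.13 ± 0.04 in that of NRF (adjusted p = 0.041), the latter lost in 13 of the fits that left out 1 library (largest adjusted p 0.108). In DRF Utp15 held 8.33, 8.43, 8.49 and 8.55 CPM at ZT0 and 6.29, 6.80, 7.16 and 7.64 CPM at ZT12, without overlap. The 9 others, among them the giant scaffold genes Heatr1 and Utp20, did not pass.

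Of the 11 large subunit factors, Brix1 and Ftsj3 rose. Brix1 (chromosome 15, 10474779 to 10485937) takes part in early 60S assembly with Rrs1. It differed by 0.31 ± 0.08 (adjusted p = 0.0049; 0.26 and 0.0177 without DRF ZT20 replicate 1), with 17, 18.5, 20.6 and 20.9 CPM at ZT8 and 9.96, 11.5, 12.1 and 13.8 CPM at ZT16 in DRF, without overlap. Ftsj3, an rRNA methyltransferase, differed by 0.12 ± 0.04 (adjusted p = 0.0353) in DRF and 0.15 ± 0.04 (adjusted p = 0.0244) in NRF. These calls were lost in 8 and 3 of the fits that left out 1 library, with adjusted p of up to 0.11 and 0.0631. Ftsj3 held 36.6, 36.7, 37.3 and 38 CPM at ZT16 and 31.1, 31.2, 31.8 and 32.1 CPM at ZT12 in NRF; the groups did not overlap. The Pes1, Bop1 and Wdr12 trio, which acts as a complex in 60S assembly, had DRF values of -0.04 ± 0.03, -0.11 ± 0.05 and 0.08 ± 0.04, none of which passed.

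In NRF the members that rose in the feeding phase were others, apart from Ftsj3. Tsr1, a late 40S factor, differed by 0.27 ± 0.07 (adjusted p = 0.00885), Nolc1 by 0.19 ± 0.05 (adjusted p = 0.00893), Bysl, a 40S factor, by 0.17 ± 0.04 (adjusted p = 0.00856) and Nop16, a 60S factor, by 0.17 ± 0.05 (adjusted p = 0.013). Tsr1 held 28.3, 35.6, 36.5 and 38.0 CPM at ZT16 and 22.7, 24.1, 28.6 and 28.8 CPM at ZT12 in NRF, with a narrow overlap. In DRF the difference was 0.01 ± 0.07 for Tsr1 (adjusted p = 0.907), but the difference between regimens did not pass for Tsr1, Nolc1 or Bysl. It passed for Nop16, at -0.22 ± 0.07 (adjusted p = 0.0133), and not with total-count scaling (-0.13, adjusted p = 0.133). The counts of Tsr1 and Bysl held decimals, so both are uncertain. With total-count scaling only these 2 members passed in the NRF contrast, in place of 6.

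The regimens were next compared at each time. The largest set of differences lay at ZT16, 4 h into darkness, in the fasting phase of DRF and the feeding phase of NRF as taken here. At that time 6 members were lower in DRF and none was higher (15.4%), against 10.8% of all genes that differed (6.74% lower and 4.02% higher). The median of the 39 was -0.06, beside 0.03 over all genes. The 6 were Nop58, Dkc1, Ncl, Brix1, Wdr43 and Gnl3, all of which also rose in the DRF feeding phase; both comparisons use the DRF ZT16 libraries. Nop58 was 0.71 ± 0.18 lower (adjusted p = 0.0171), Dkc1 0.70 ± 0.21 (0.0288), Ncl 0.64 ± 0.18 (0.0231), Brix1 0.63 ± 0.15 (0.0149), Wdr43 0.48 ± 0.15 (0.0317) and Gnl3 0.45 ± 0.15 (0.0383). On the fold scale Nop58 was 1.64-fold lower and Gnl3 1.37-fold lower. Npm1, at -0.57 ± 0.20, did not pass (adjusted p = 0.053).

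The library values show how the groups lay at ZT16. Nop58 held 11.8, 12.3, 14.5 and 15.3 CPM in NRF, all above its 6.16 to 10.2 CPM in DRF. Ncl held 168, 169, 176 and 188 CPM in NRF, all above its 94.1 to 143 CPM in DRF. Brix1 held 16.9, 19.1, 19.3 and 19.9 CPM in NRF, above the 13.8 CPM of its highest DRF library. For 10 of the 39 members all DRF libraries lay below all NRF libraries at ZT16, a larger share than the 10.5% of all genes (1264 of 12024). For no member did all lie above, against 7.76% of all genes. DRF ZT16 replicate 4 was the library nearest to NRF in Nop58, Dkc1, Ncl, Wdr43, Gnl3 and Brix1.

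**Figure D3:**
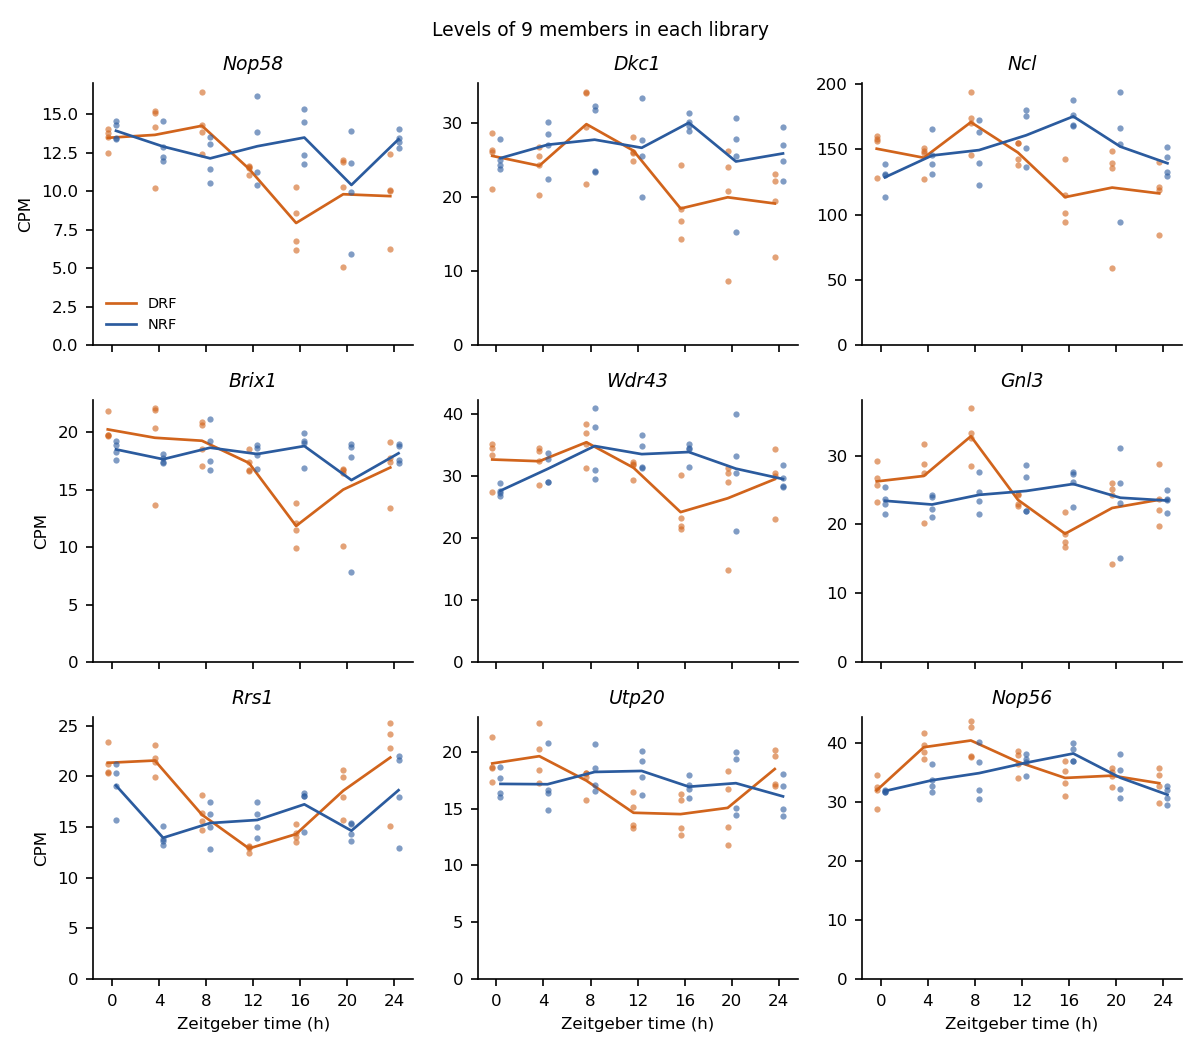
CPM (from 0) in each library (points) and group means (lines) against zeitgeber time for 9 members in DRF (orange) and NRF (blue), 4 libraries a group, drawn slightly apart. At ZT16 the DRF libraries of Nop58, Ncl and Brix1 lie below all NRF libraries. At ZT20 a single low library stands out in DRF for Ncl, Wdr43, Gnl3 and Brix1, and in NRF for Brix1.

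The count at ZT16 was sensitive to single libraries. It was 3, 1 and 0 without DRF ZT16 replicates 1, 2 and 3, and 2 without NRF ZT16 replicate 2, 3 or 4. Without DRF ZT16 replicate 3 the Brix1 value was -0.64 (adjusted p = 0.054) and that of Nop58 was -0.65 (adjusted p = 0.0801), the highest adjusted p in any such fit being 0.054 for Brix1 and 0.132 for Dkc1. Dkc1 and Wdr43 lost the call in 7 of these fits, Gnl3 in 6, Ncl in 5, Nop58 in 2 and Brix1 in 1. Without the 3 libraries that stood apart, none of which is of ZT16, the count was 8, and the share of all genes that differed was 19.3%. With total-count scaling it was 14, again all lower in DRF, beside 34 higher and 2002 lower of all genes in place of 483 and 810.

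Other measures moved with the DRF ZT16 libraries. The rank correlation between a library's deviation from the mean library and gene length was -0.327 to -0.0111 in the 4 DRF libraries of ZT16 and -0.0388 to 0.14 in the 4 NRF libraries, so longer genes stood lower in DRF. With the length trend removed 5 members still differed, and Nop58 was 0.60 lower (adjusted p = 0.0194), Ncl 0.54 (0.029) and Brix1 0.68 (0.0131). Of the 5 red blood cell markers 4 were higher in DRF at ZT16, and their summed level was 369, 404, 650 and 1680 CPM in the DRF libraries against 185, 274, 314 and 409 CPM in NRF. Their part in the result was not tested. None of the markers of muscle (7), slow fibres (6), endothelium (5), macrophages (6), fibroblasts (5), adipocytes (5) or satellite cells (4) differed at ZT16.

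At ZT4 the differences lay the other way. There 3 members were higher in DRF, 7.69% against 0.973% of all genes (0.674% higher and 0.299% lower), and for 8 of the 39 members all DRF libraries lay above all NRF libraries, against 5.77% of all genes. For no member did all lie below, against 3.95%. The median of the 39 was 0.12, beside 0.01 over all genes, and 33 were above 0. Rrs1 (chromosome 1, 9545408 to 9547455), which brings the 5S ribosomal particle into the large subunit, held 19.9, 21.5, 21.8 and 23 CPM in DRF and 13.2, 13.6, 13.8 and 15.2 CPM in NRF. It was 0.59 ± 0.12 higher (adjusted p = 0.00521), a 1.51-fold difference. Nop2, an rRNA cytosine methyltransferase, held 24.8, 27.6, 29.3 and 30.9 CPM in DRF against 18.5, 19.9, 20.3 and 21.8 CPM in NRF, and was 0.46 ± 0.09 higher (adjusted p = 0.00411). Nolc1 was 0.35 ± 0.09 higher (adjusted p = 0.0441), a call lost under 6 of 11 alternatives and in 10 of the fits that left out 1 library (adjusted p of up to 0.285). With total-count scaling Nop2 alone passed, and Rrs1 stood at 0.58 (adjusted p = 0.0527).

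At the remaining times few or no members passed. At ZT24 Polr1c, Pes1 and Utp4 were higher in DRF, by 0.28 ± 0.09 (adjusted p = 0.0406), 0.26 ± 0.06 (0.0067) and 0.23 ± 0.06 (0.0262), against 5.56% of all genes (3.49% higher and 2.06% lower). Pes1 held 41.4, 41.5, 43.4 and 48.3 CPM in DRF and 35.4, 36.0, 36.3 and 37.0 CPM in NRF. That count was 0 without DRF ZT24 replicate 4, 1 without DRF ZT24 replicate 1 or NRF ZT24 replicate 1 or 4, 5 without DRF ZT20 replicate 1 or NRF ZT20 replicate 4, and 7 without DRF ZT24 replicate 2. No member passed with limma at ZT0, ZT8, ZT12 or ZT20, where 1.85%, 0.208%, 3.5% and 2.96% of all genes did. The shares of all genes that were higher and lower in DRF were 0.882% and 0.965% at ZT0, 0.108% and 0.0998% at ZT8, 2.15% and 1.36% at ZT12, and 0.715% and 2.25% at ZT20. At an unadjusted p under 0.05, 1, 8, 8 and 8 of the 39 members differed at these times, beside 13%, 7.27%, 22.1% and 18.8% of all genes. With total-count scaling 5 members passed at ZT12, all lower in DRF, and none at ZT24.

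Averaged over the day, the direction of the members that passed depended on the scaling. As deposited, 5 were higher in DRF and none was lower, 12.8% against 15.9% of all genes (8.35% higher and 7.53% lower). With total-count scaling none was higher and 10 were lower, and of all genes 196 were higher and 3303 lower in place of 1004 and 905. The 5 were Nhp2 at 0.16 ± 0.05 (adjusted p = 0.0257), Nop16 at 0.14 ± 0.03 (0.00451), Bysl at 0.12 ± 0.03 (0.00979), Rrp9, which binds the U3 snoRNA, at 0.12 ± 0.04 (0.0268), and Nop2 at 0.10 ± 0.03 (0.049). Nop2 lost the call in 40 of the 56 fits that left out 1 library (adjusted p of up to 0.092), and Rrp9 without DRF ZT20 replicate 1 (0.0527). With total-count scaling the values of these 5 lay between 0.02 and 0.08 and none passed. The 10 that were then lower were others. As deposited the count was 3 without DRF ZT20 replicate 1, 8 without DRF ZT24 replicate 2 and 13 without NRF ZT20 replicate 4.

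A 24 h cosine was then fitted in each regimen, which gives the time of a daily peak and the height from trough to peak. In DRF 22 members were rhythmic, 56.4% against 48.7% of all genes. In NRF 7 were, 17.9% against 15.1% of all genes. The median height of the 39 members was 0.23 in DRF and 0.17 in NRF, beside 0.26 and 0.16 over all genes. Of the members 19 passed in DRF alone, 4 in NRF alone (Bysl, Nolc1, Nop16 and Tsr1), 3 in both (Ftsj3, Nop14 and Nop56) and 13 in neither. Without NRF ZT16 replicate 3 or 4, NRF ZT20 replicate 3, NRF ZT4 replicate 4 or NRF ZT8 replicate 3, the NRF count was 4, 3, 2, 3 and 3. In NRF Nop56 was the only rhythmic member that kept its call in all such fits. In DRF 17 of the 22 did; Gar1 lost it in 31, Nhp2 in 17, Npm1 in 3, Ftsj3 in 2 and Utp15 in 1, with adjusted p of up to 0.128, 0.127, 0.115, 0.0718 and 0.0577.

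Of the 22 rhythmic members in DRF 18 peaked in the light phase and 4 (Nhp2, Bop1, Polr1c and Utp15) in the dark phase, while 52.4% of the 5859 rhythmic genes peaked in the light phase. Of the 7 in NRF 6 peaked in the dark phase, the other being Nop14 at ZT11.7, while 47.6% of the 1820 rhythmic genes peaked in the light phase. The light-phase peaks of DRF spread from ZT1.18 to ZT8.22 with no clear break, as the plot of peak times shows. Rrs1, Gar1, Heatr1, Rrp1b, Nob1, Utp20 and Wdr75 peaked between ZT1.18 and ZT3.76. Brix1, Ddx21, Nop58, Gnl3, Npm1, Wdr43, Nop14, Ftsj3, Ncl, Dkc1 and Nop56 peaked between ZT4.82 and ZT8.22. Nop56 peaked at ZT8.22 in DRF and at ZT13.4 in NRF, and Ftsj3 at ZT6.92 and ZT17.6.

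**Figure D4:**
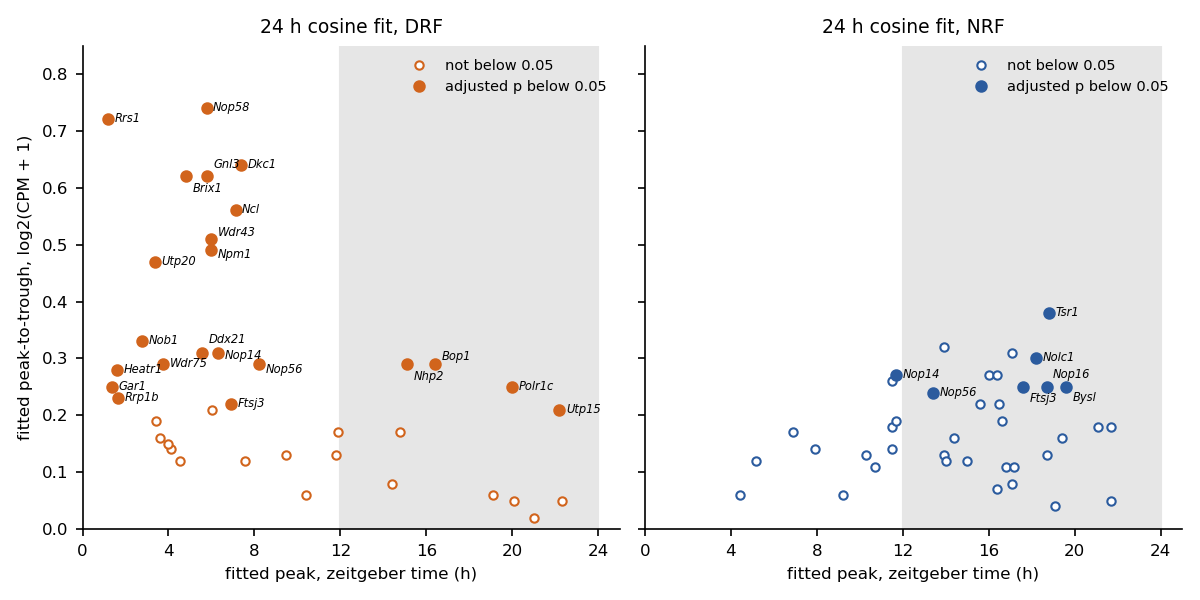
Fitted peak time (zeitgeber hours, dark phase shaded) against fitted peak-to-trough height (log2(CPM + 1)) of the 39 members in DRF (left) and NRF (right), filled and named where the adjusted p was below 0.05. In DRF 18 of 22 filled points lie in the light phase, and in NRF 6 of 7 lie in the dark phase.

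The rhythm itself differed between the regimens for 11 members, 28.2% against 13.1% of all genes. The fitted height was larger in DRF for 8 of them (9.06% of all genes) and larger in NRF for 3 (4.07%), but larger in DRF for 14 and in NRF for 1 with total-count scaling. Of the 11, Rrs1 had the largest difference in height, 0.53 (adjusted p = 0.00257). In DRF it held 19.9 to 23 CPM at ZT4, 12.5, 13, 13 and 13.1 CPM at ZT12, and 15.1 to 25.2 CPM at ZT24. Its DRF rhythm had a height of 0.72 and a peak at ZT1.18 (adjusted p = 2.51e-07), the smallest p of any member. Utp20 (chromosome 10, 88746607 to 88826814) had a DRF height of 0.47 with a peak at ZT3.35 (adjusted p = 4.31e-05), and its rhythm differed between regimens by 0.34 in height (adjusted p = 0.00331). Its DRF libraries held 17.2, 18.4, 20.2 and 22.6 CPM at ZT4 and 13.3, 13.6, 15.2 and 16.5 CPM at ZT12, while its NRF means stayed between 16.1 and 18.3 CPM.

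The other members with a rhythm difference were Gnl3 (0.49 in height, adjusted p = 0.00997), Ncl (0.24, 0.0455), Wdr43 (0.24, 0.0426), Ddx21 (0.09, 0.00424), Nop56 (0.05, 0.0139), Utp15 (0.04, 0.0299), Ftsj3 (-0.03, 0.0023), Nolc1 (-0.09, 0.0088) and Nop2 (-0.12, 0.0465). For Ddx21, Nop56, Utp15, Ftsj3 and Nolc1 the heights were close, and the fitted peaks lay at ZT5.57, ZT8.22, ZT22.2, ZT6.92 and ZT6.02 in DRF and at ZT15.6, ZT13.4, ZT6.87, ZT17.6 and ZT18.2 in NRF. Not all of these rhythms passed within a regimen. The test covers height and peak time together, and the sign of a small difference in height was not stable. It turned for Ftsj3, Nolc1 and Nop2 with total-count scaling (0.21, 0.16 and 0.16), for Ftsj3 without DRF ZT20 replicate 2 (0.01) or NRF ZT20 replicate 3 (0.00), and for Utp15 without ZT0 (-0.01). Without DRF ZT20 replicate 1 the difference in height was 0.09 for Ncl (adjusted p = 0.068), 0.13 for Wdr43 (0.037) and 0.04 for Ddx21 (0.00628). Nop2, Ncl and Wdr43 lost the call for the difference in 34, 27 and 20 of the fits that left out 1 library, with adjusted p of up to 0.0891, 0.0855 and 0.0804, and Utp15 without NRF ZT8 replicate 2 (0.0524). The count was 17 without NRF ZT20 replicate 4.

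Without all 3 libraries that stood apart, the height differences of Ncl, Wdr43 and Ddx21 were 0.06, 0.15 and 0.03, and that of Utp15 did not pass (adjusted p = 0.0777). The regimen difference of the feeding phase was then 0.27 in Nop58, 0.27 in Dkc1, 0.18 in Gnl3, 0.25 in Wdr43 and 0.22 in Brix1, of which the last 2 passed (adjusted p = 0.0291 and 0.0457), and Rrs1 lost its call (0.0822). Ftsj3 in the DRF feeding phase (0.0978), Utp15 and Bysl in the NRF feeding phase (0.195 and 0.051), Nop2 on average over the day (0.0808), Nhp2 and Ftsj3 in the DRF rhythm (0.052 and 0.0667), and Nop16, Bysl and Nolc1 in the NRF rhythm (0.0571, 0.171 and 0.0685) lost theirs too.

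In the authors' deposited table of rhythm tests, 7 of the 39 members had an adjusted p-value under 0.05 in DRF, against 15.9% of the 16119 genes listed, and none in NRF, against 7.16%. In the authors' deposited table the 7 were Rrs1 (q = 4.1e-07), Utp20 (0.000674), Brix1 (0.0024), Nop56 (0.0042), Nop58 (0.0191), Utp15 (0.0256) and Gnl3 (0.0265).

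Some of the members that moved in DRF share a property that did not enter their selection. In the GENCODE vM21 annotation 7 of the 39 members hold annotated snoRNA genes in introns on their own strand: Nop58 and Nop56 hold 4 each, Ncl, Gnl3 and Wdr43 3 each, Tsr1 2 and Dkc1 1. SnoRNAs are excised from such introns when the host is spliced, so host and guide come from the same transcript. Brix1, Npm1, Rrs1 and Utp20, which also moved in DRF, hold none. This grouping was noticed after the values were seen and therefore carries no test. Of the 7 host genes 6 rose in the DRF feeding phase, all but Tsr1, and their median difference was 0.33. Of the other 32 members 4 rose and 2 fell, with a median of 0.01. At ZT16 5 of the 7 hosts were lower in DRF, with a median of -0.48, as against 1 of the other 32 (Brix1), with a median of 0.01. With total-count scaling 6 hosts rose in the DRF feeding phase, with a median of 0.39, and 7 were lower at ZT16, with a median of -0.63; of the other 32 members 7 rose and 7 were lower, with medians of 0.07 and -0.13. The libraries were made from polyadenylated RNA, and the snoRNAs themselves are not analysed here.

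The box C/D guides below lie in 5 of the hosts that rose and are shown because they are what those introns yield. They are read from GENCODE vM21 (GRCm38), with the C box (TGATGA) and the D box (CTGA) in capitals. They lie at chr14:31014287-31014366 (minus strand), chr1:86356261-86356330 (minus), chr2:130275506-130275573 (plus), chr1:59704790-59704873 (plus) and chr17:71631281-71631365 (plus), in this order.
Snord69 in Gnl3: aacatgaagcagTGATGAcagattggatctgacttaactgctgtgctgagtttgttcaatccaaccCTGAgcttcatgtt
Snord82 in Ncl: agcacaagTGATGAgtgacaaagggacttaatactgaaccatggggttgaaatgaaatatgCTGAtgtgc
Snord110 in Nop56: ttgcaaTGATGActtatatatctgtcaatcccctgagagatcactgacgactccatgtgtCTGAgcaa
Snord11 in Nop58: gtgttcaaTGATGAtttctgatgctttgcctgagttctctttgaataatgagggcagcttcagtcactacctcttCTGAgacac
Snord92 in Wdr43: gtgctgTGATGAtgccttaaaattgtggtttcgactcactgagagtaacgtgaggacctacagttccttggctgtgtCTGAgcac

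Averaged over the 7 hosts, the deviation of each library from the gene's own mean was 0.04, 0.26, 0.28 and 0.41 at ZT8 in DRF and -0.40, -0.38, -0.36 and -0.03 at ZT16. In NRF it was 0.07, 0.22, 0.23 and 0.27 at ZT16. The other 32 members had group means between -0.08 and 0.10 at all times. The lowest host values of all were -0.83 in DRF ZT20 replicate 1, -0.48 in NRF ZT20 replicate 4 and -0.46 in DRF ZT24 replicate 4, where the other 32 members stood at 0.01, 0.02 and 0.09. DRF ZT20 replicate 1 also had the strongest negative length correlation of these, -0.370. It was -0.308 in DRF ZT24 replicate 4 and -0.103 in NRF ZT20 replicate 4. The slow fibre marker sum was 3640 CPM in DRF ZT20 replicate 1, against 31, 366 and 988 CPM in the rest of its group. That sum was 3490 CPM in DRF ZT24 replicate 4, the highest of its group, and 2380 CPM in NRF ZT20 replicate 4, which was not. NRF ZT16 replicate 1 had the highest sum, 3810 CPM, with a host value of 0.07. The part of slow fibres was not tested.

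**Figure D5:**
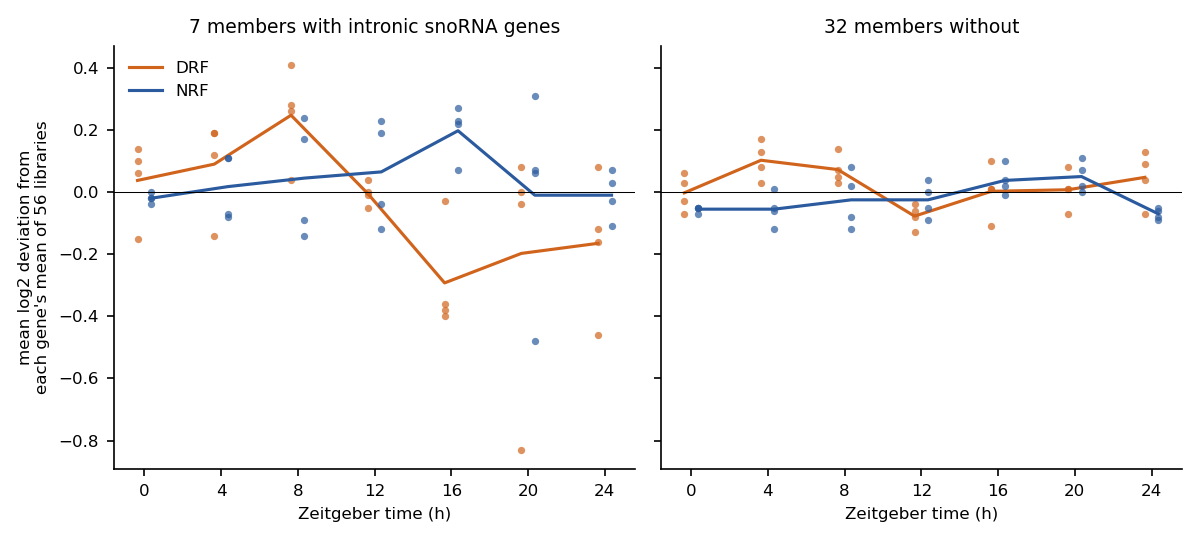
Mean log2 deviation from each gene's mean over 56 libraries, for the 7 members with intronic snoRNA genes (left) and the 32 without (right), per library (points) with group means (lines), DRF in orange and NRF in blue. The hosts lie between -0.40 and -0.03 at ZT16 in DRF, while the other members stay near 0.

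Other host genes are given for comparison. Of 216 other tested genes with an intronic snoRNA 43 rose and 35 fell in the DRF feeding phase, with a median of -0.00. This is 36.1% against 28.1% of all genes (16.4% rose and 11.7% fell). At ZT16 16 were higher and 18 lower in DRF, beside 4.02% and 6.74% of all genes. With total-count scaling 60 rose and 6 fell (all genes: 2616 and 499). At ZT16 none was then higher and 49 were lower (all genes: 34 and 2002). With quantile scaling 8 were higher and 19 lower at ZT16 (all genes: 394 and 743). The 29 of them that encode ribosomal proteins had 0 that rose and 8 that fell in the DRF feeding phase, and none of either with total-count scaling. The recovered length of the gene model was 1.0 to 3.13 times the longest coding transcript in the 7 hosts, from Wdr43 to Gnl3, and 1.0 to 3.52 times in the other members, with Fbl the highest. Whether intron reads entered the counts of these genes was not tested.

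Related genes were read from lists made with earlier results known. Of all genes tested 16.4% rose and 11.7% fell in the DRF feeding phase, and at ZT16 4.02% were higher and 6.74% lower in DRF. Of 93 other ribosome biogenesis genes 23 rose and 7 fell in the DRF feeding phase, with a median of 0.05. At ZT16 1 of them was higher and 11 were lower in DRF. The feeding-phase split was 35 and 1 with total-count scaling (all genes: 2616 and 499) and 21 and 15 with quantile scaling (all genes: 1847 and 1704). Of 82 tested cytosolic ribosomal protein genes, the products that these factors assemble, none rose and 24 fell in the DRF feeding phase, and 2 fell with total-count scaling. Averaged over the day 66 of the 82 were higher in DRF, with a median of 0.15 (32 and 0.07 with total-count scaling). Of all genes 8.35% were higher on that average, and 196 of 12024 with total-count scaling. At ZT16 16 were higher and none was lower, which became 6 and none with quantile scaling and none and 2 with total-count scaling. Of all genes 394 were higher and 743 lower at ZT16 with quantile scaling, and 34 and 2002 with total-count scaling. At ZT16 the median of DRF minus NRF was 0.22 in the ribosomal protein genes (0.06 with total-count scaling). In the snoRNA-hosting assembly genes it was -0.48 (-0.63 with total-count scaling). Those hosts were grouped after the values were seen, so the 2 medians carry no test.

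Of 16 upstream regulators of ribosome synthesis 1 rose and 6 fell in the DRF feeding phase (all genes: 16.4% and 11.7%). With total-count scaling 1 rose and 2 fell (all genes: 2616 and 499 of 12024). The riser was Rps6kb1, the S6 kinase downstream of mTORC1, at 0.52 ± 0.12 (adjusted p = 0.0012). The 6 that fell included Sesn1, a restraint on mTORC1, at -0.46 ± 0.08 (adjusted p = 1.68e-05), Mlxip (MondoA, a glucose-sensing factor) at -0.28 ± 0.06 (0.0011) and Max, the partner of Myc, at -0.20 ± 0.06 (0.00617). The others were Mtor, the kinase of mTORC1, at -0.16 ± 0.06 (0.0338), its scaffold Rptor at -0.13 ± 0.05 (0.0431), and Tsc2, an inhibitor of mTORC1, at -0.16 ± 0.05 (0.00839). Myc itself had -0.36 ± 0.17 (adjusted p = 0.107). In the NRF feeding phase Mlxip and Max rose instead, by 0.28 ± 0.06 (adjusted p = 0.00244) and 0.20 ± 0.06 (0.0151). Their fitted 24 h peaks lay at ZT21.4 in DRF and ZT20.8 in NRF (Mlxip) and at ZT18.8 and ZT17.3 (Max). Of the rest that passed in DRF none passed in the NRF feeding phase.

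Promoter sequence of 250 bases before to 50 after the start was matched in RefSeq (GRCm38.p6) for 34 of the 39 members; Bop1, Rrs1, Npm1, Fbl and Rrp12 had no entry. The E-box CACGTG, the site of Myc, Max and clock proteins, lay in 7 of the 34 (20.6%) against 8.09% of 27025 genes with a promoter of the same length. CCGGAAG, an ETS-type motif, lay in 10 (29.4%) against 9.93%, searched on both strands. The palindromic motif of nuclear respiratory factor 1 lay in none, against 1.07%. These shares describe letters in a window and not binding. The 7 members with an E-box were Mybbp1a, Nop2, Pes1, Tsr1, Utp20, Utp4 and Wdr43. Of these Wdr43 rose in the DRF feeding phase and 6 did not pass.

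The windows around the motif are shown for the 4 E-box members with the smallest p in that contrast, with the motif in capitals. All 4 motifs lie after the start, in transcribed sequence, while the window of Pes1 begins before the start. The first base of the motif is at positions 18, 38, 3 and 41, counting the first transcribed base of the promoter entry as 1. For Wdr43 the start in that entry lies downstream of the gene's first base given above, 71616178. Their positions in GRCm38 are chr17:71616222-71616247 (plus), chr10:88826765-88826787 (minus), chr11:3963967-3963992 (plus) and chr11:72441357-72441376 (plus).
Wdr43: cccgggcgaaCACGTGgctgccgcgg
Utp20: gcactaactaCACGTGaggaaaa
Pes1: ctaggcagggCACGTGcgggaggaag
Mybbp1a: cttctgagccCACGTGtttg

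In all, 30 of the 39 members passed in at least 1 of the 14 comparisons, as did 65.8% of all genes. The 9 that passed in none were Fbl, Mybbp1a, Nop10, Polr1a, Polr1b, Rrp1, Rrp12, Wdr12 and Wdr74. A p above the threshold does not show that these genes were steady, and Rrp12, for example, had a DRF feeding-phase difference of 0.04 ± 0.06 and a ZT4 difference of 0.29 ± 0.11 (adjusted p = 0.236).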

How the data were processed

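Polyadenylated RNA of mouse gastrocnemius was sequenced on paired ends, per the labels' protocols, and the tools listed in the submitters' processing notes are HISAT2, RSEM and Bowtie2, the builds GRCm38.p6 and mm10. The table headed TPM that the authors deposited covers 19072 genes in 56 libraries. Its values are a score, not TPM: the logarithm of 1 plus an estimated count per 1000000 of a library size, divided by gene length and rescaled so that each column sums to 1000000. The authors also deposited, per regimen, the p-value and Benjamini-Hochberg q-value, the phase and period in hours and the amplitude score of their own rhythm tests. Counts and lengths were recovered by inverting the score for 17442 genes, 15331 in whole reads (tolerance 0.0001 of a read) and 2111 with decimals, and CPM are per 1000000 of the library size held in the scores, 0.854 to 1.21 times the recovered reads.

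The 12024 genes whose mean was 1 CPM or more were fitted on log2(CPM + 1) with limma 3.58.1 in R 4.3.3, with all 14 groups sharing the spread. A fold on this scale understates the change of low genes. The members, classes, marker and gene lists and tests were chosen with earlier results of these data known. Full values were given to the members with the smallest p in the DRF feeding-phase contrast and in the rhythm difference in each class, to the 3 largest and 3 smallest absolute DRF feeding-phase differences, and to the 3 highest and 3 lowest levels per kilobase; Rrs1, Nop2, Pes1, Nop14 and the other members that passed were named after their values were seen. On simulated data in which 200 of 12024 genes were raised by 0.5 at ZT4, ZT8 and ZT12 in DRF, the DRF feeding-phase test called 182 of them and 8 others. That raise exceeded the DRF feeding-phase difference of every member. The noise was drawn independently for each gene and library, so deviations that a library shares over many genes were not simulated. Alternatives were the pseudocount (0.5), no filter, total-count and quantile scaling, log2 of the deposited value, a gene-length correction, library weights, a replicate block, and leaving out ZT0, ZT24 or each library. Leaving out the 3 libraries farthest from their group was added after seeing the data.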

Additional observations from a re-analysis of the deposited data

Results flagged for a closer look

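Among 20 members given in full, each of 280 groups of 4 libraries was searched for a library far from the other 3, and 16 groups held 1 (by Dixon's test at the usual level). Chance gives about 1 in 20. DRF ZT20 replicate 1 accounted for 4 of the 16, all low: Ncl at 59.3 CPM, Wdr43 at 14.9 CPM, Gnl3 at 14.2 CPM and Brix1 at 10.1 CPM. Brix1 was also low in NRF ZT20 replicate 4, at 7.83 CPM, and high in DRF ZT0 replicate 2, at 21.8 CPM. The other libraries were Ncl in DRF ZT0 replicate 3 at 128 CPM, Npm1 in DRF ZT0 replicate 1 at 116 CPM, Wdr43 in DRF ZT12 replicate 2 at 29.4 CPM, Nop10 in NRF ZT24 replicate 2 at 38.6 CPM and Rrp1b in NRF ZT4 replicate 1 at 10 CPM. Utp15 stood apart in DRF ZT4 replicate 1 at 8.18 CPM and in DRF ZT24 replicate 2 at 7.35 CPM, Utp20 in DRF ZT8 replicate 1 at 15.7 CPM, and Polr1b in DRF ZT12 replicate 2 at 15.7 CPM and DRF ZT20 replicate 2 at 20.9 CPM.

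The feeding-phase difference itself differed between the regimens in 11 members (DRF minus NRF, limma). It was larger in DRF for Nop58 (0.47), Dkc1 (0.45), Wdr43 (0.39), Brix1 (0.38), Gnl3 (0.32), Nop14 (0.28) and Nop56 (0.22), and smaller for Heatr1 (-0.18), Nop16 (-0.22), Polr1c (-0.25) and Rrs1 (-0.26). With total-count scaling these last 4 no longer passed. The fitted 24 h curve differed in 11, with a difference in height of 0.53 in Rrs1, 0.49 in Gnl3, 0.34 in Utp20, 0.24 in Ncl and in Wdr43, 0.09 in Ddx21, 0.05 in Nop56, 0.04 in Utp15, -0.03 in Ftsj3, -0.09 in Nolc1 and -0.12 in Nop2, the last 3 of which turned positive with total-count scaling. Gnl3, Nop56, Rrs1 and Wdr43 passed both tests. Dkc1 (adjusted p = 0.146), Gnl3 (0.158), Rrs1 (0.0822) and Nop58 (0.0691) lost the first of these calls without the 3 libraries that stood apart. When 1 library was left out at a time, Heatr1, Rrs1, Dkc1 and Gnl3 lost that call in 25, 12, 10 and 8 fits, with adjusted p of up to 0.0733, 0.0613, 0.0735 and 0.0679. DRF ZT20 replicate 1 was among the libraries whose removal did so for Rrs1, Dkc1 and Gnl3.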

How the results depend on the processing

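In tests with a direction no member's call reversed under any alternative. The difference in rhythm height changed sign in 8 fits: to 0.21, 0.16 and 0.16 for Ftsj3, Nolc1 and Nop2 with total-count scaling, to 0.01 for Ftsj3 with log2 of the deposited value, to 0.02 for Nop2 with library weights, to -0.01 for Utp15 without ZT0, and to 0.01 and 0.00 for Ftsj3 without DRF ZT20 replicate 2 and NRF ZT20 replicate 3. The counts of members that passed moved as follows, each beside the count reported. Total-count scaling shifted the all-gene median by -0.07 on average over the day; with it that average gave 10 lower members (in place of 5 higher), ZT4 1 (3), ZT12 5 (0), ZT16 14 (6), ZT24 0 (3), the NRF feeding phase 2 (6) and the NRF rhythm 2 (7). Of all genes 49 were then higher and 482 lower at ZT0 (106 and 116), 24 and 42 at ZT4 (81 and 36), 80 and 646 at ZT12 (258 and 163), 35 and 290 at ZT20 (86 and 270; 108 and 127 with quantile scaling) and 149 and 345 at ZT24 (420 and 248). With quantile scaling ZT0 gave 1 (0), ZT12 1 (0) and ZT24 5 (3). With log2 of the deposited value the average gave 1, the NRF rhythm 1 and the rhythm difference 7 (11). With the length trend removed the average gave 3, ZT12 1 and ZT24 5. With library weights the average gave 8, ZT0 1, ZT4 9, ZT12 2, ZT16 10, ZT20 1 (0), ZT24 5, the NRF rhythm 16 and the rhythm difference 25. Without ZT24 ZT20 gave 1, the NRF rhythm 4, the rhythm difference 7 and the regimen difference of the feeding phase 7 (11). Without the 3 libraries that stood apart, a choice made after seeing the data, ZT0 gave 1 and ZT24 6. The causes were not tested.

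Leaving out each library in turn gave 3 to 13 members on average over the day, 0 to 1 at ZT0, 2 to 4 at ZT4, 0 to 0 at ZT8, 0 to 1 at ZT12, 0 to 8 at ZT16, 0 to 3 at ZT20, 0 to 7 at ZT24, 19 to 23 for the DRF rhythm, 2 to 8 for the NRF rhythm, 8 to 17 for the rhythm difference, 9 to 13 for the DRF feeding phase, 4 to 7 for the NRF feeding phase and 8 to 12 for their difference. Deviations were correlated over 28 pairs of libraries that share a replicate number and time. The correlations ran from -0.517 to 0.607 with a median of 0.0639, and 13 were above 0.1. Pairs with unlike numbers were not compared, so whether the numbers pair the samples was not tested. With a replicate block 2 members passed at ZT4, 21 in the DRF rhythm and 9 in the rhythm difference, and the other counts were equal to those reported. Depth is lowest for Gar1, with 79 reads in its scarcest library.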
